A study of Mus musculus with 9 samples.

Results

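The anaphase-promoting complex, or APC/C, is the ubiquitin ligase that marks cyclin B and securin for destruction by the proteasome and so lets a cell leave metaphase. It works only when an activator, Cdc20 or Cdh1 (the product of Fzr1), brings substrates to it, and it is held back by the F-box proteins Emi1 (Fbxo5) and Emi2 (Fbxo43). In mouse oocytes the Cdh1 form is known to help hold the prophase arrest, Emi1 acts around the resumption of meiosis, and Emi2 holds the ovulated egg at the second metaphase until fertilization. The genes described here are 10, taken by name from the 24228 usable rows of the deposited expression table: the activators Cdc20 and Fzr1, the inhibitors Fbxo43 and Fbxo5, and the core subunits Anapc2, Anapc11, Cdc16, Cdc23, Cdc26 and Cdc27. All 10 had a row.

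The RNA came from mouse oocytes that were fully grown and still held a germinal vesicle, the prophase arrest before meiosis resumes. The C57BL/6 females had received PMSG, a hormone that makes follicles grow, at 5 IU and 46 h before collection. The 3 groups of 3 libraries were wild type (WT), a conditional knockout of Mtor by Gdf9-Cre (MG) and a conditional knockout of Mtor by Zp3-Cre (MZ). Mtor encodes a kinase that controls translation and growth. Each Cre is driven by the promoter of an oocyte gene, Gdf9 being active sooner in follicle development than Zp3. Age is 23 days in the series design and 6 months in the sample labels, which was not resolved. No label ties the libraries of a group to different animals. The p-values therefore cover only the variation among libraries, which may be technical.

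Values are FPKM, fragment counts scaled for transcript length and sequencing depth. From the lowest step among low values the libraries were put at about 580000 (MG 1) to 1043000 fragments (MZ 2). The 12 oocyte markers were all present in each group and summed to 35692 to 41960 FPKM per WT library, 37849, 33991 and 21774 in MG libraries 1 to 3, and 39186 to 42039 per MZ library. MG 3 stood apart: it was the lowest library for 9 of the 12, with Gdf9 at 7327 FPKM (18400 in MG 1 and 14940 in MG 2) and Zp3 at 555 FPKM (1402 in MG 1 and 1089 in MG 2). The part of this in the results on MG was not tested beyond leaving MG 3 out. The 13 markers of granulosa and cumulus cells, which surround the oocyte, summed to only 22.8 to 38.2 FPKM per MG library, 22.4 to 28.3 per MZ library and 20.3 to 33.6 per WT library. Of these, 6 were listed at 0 in all WT, 4 in all MG and 5 in all MZ libraries, Foxl2 and Lhcgr in all 9. Cyp19a1 was at 8.03 to 25.7 FPKM in every library. Kitl was at 0.35 to 1.15 FPKM in WT, 2.51 to 6.36 in MG and 1.82 to 3.55 in MZ, and Nr5a2 at 0.59 to 1.84 in WT, 2.90 to 5.25 in MG and 1.00 to 4.39 in MZ. The 5 theca and stroma markers summed to 3.72 to 6.64 FPKM per library in WT, 4.03 to 13.4 in MG and 3.31 to 16.7 in MZ. The 4 blood and immune markers summed to 4.71 to 8.70, 2.80 to 23.8 and 2.18 to 19.2 in the same order. The 2 endothelium markers summed to 11.9 to 22.5, 15.8 to 16.2 and 7.07 to 14.3. The part of any of these markers in the results was not tested. The FPKM of a library summed to 652537 ± 67110 in WT, 498936 ± 64355 in MG and 670216 ± 10778 in MZ (SD, n = 3 each), lowest in MG 3 (428329). Mtor itself was at 3.17 ± 0.20 FPKM in WT, 5.29 ± 0.68 in MG and 5.2 ± 1.18 in MZ (SD, n = 3 each). Every MG and MZ value of Mtor was above every WT value. A value over the whole gene cannot show whether the targeted part is missing, so it does not check the deletion.

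The promoters of an inhibitor and of both activators are printed first, because these genes carry the comparisons that follow. The windows are from RefSeq on GRCm38.p6, run from 250 bases before the start to 50 bases after it, and read 5′ to 3′ on the strand of the gene. Capitals mark the letters CCAAT (the CCAAT box, bound by NF-Y), TTTGAA (the cell cycle homology region, CHR, found at genes of late cell cycle phases) and GGGCGG (the GC box), each searched on both strands.
Fbxo5 (chr10:5805416-5805715, minus strand): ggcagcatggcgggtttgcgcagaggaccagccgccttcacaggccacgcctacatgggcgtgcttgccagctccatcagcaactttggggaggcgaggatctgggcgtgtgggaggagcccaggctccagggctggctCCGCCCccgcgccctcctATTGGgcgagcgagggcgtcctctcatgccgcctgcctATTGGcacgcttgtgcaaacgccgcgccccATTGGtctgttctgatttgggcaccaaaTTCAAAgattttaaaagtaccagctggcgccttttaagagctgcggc
Cdc20 (chr4:118437294-118437593, minus strand): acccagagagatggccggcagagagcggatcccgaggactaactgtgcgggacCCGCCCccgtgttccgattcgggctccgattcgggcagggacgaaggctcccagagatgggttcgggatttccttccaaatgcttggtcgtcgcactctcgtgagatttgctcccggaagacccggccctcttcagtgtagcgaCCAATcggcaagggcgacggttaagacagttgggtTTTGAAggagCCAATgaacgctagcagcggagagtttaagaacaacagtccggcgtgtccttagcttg
Fzr1 (chr10:81378321-81378620, minus strand): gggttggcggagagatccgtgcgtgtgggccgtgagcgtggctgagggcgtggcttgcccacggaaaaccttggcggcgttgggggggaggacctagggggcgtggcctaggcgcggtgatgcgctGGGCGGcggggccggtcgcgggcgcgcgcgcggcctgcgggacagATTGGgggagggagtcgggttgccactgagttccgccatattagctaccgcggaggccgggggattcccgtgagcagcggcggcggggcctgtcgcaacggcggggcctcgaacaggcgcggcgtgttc

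Fbxo5 held 3 CCAAT boxes, all on the opposite strand, and 1 CHR at 3 bases from the start. Cdc20 held 2 CCAAT boxes and 1 CHR at -18 bases from the start. Fzr1 held 1 CCAAT box and no CHR letters in this window. Each of these windows held 1 GC box, and no capitals of different motifs overlapped. A promoter was matched for 8 of the 10 genes, with 9 windows, since Anapc11 has 2 starts. None was available for Fbxo43 and Cdc23, so the counts below cover only 1 of the inhibitors. Of the 8, a CCAAT box was found for 5, a CHR for 2 (Fbxo5 and Cdc20), a GC box for 6 and an E-box (CANNTG) for 3. Of all 32851 windows of this length in the table, 37.4% held a CCAAT box, 17.9% a CHR, 35.7% a GC box and 72.3% an E-box. These are matches of letters and a description.

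In wild-type oocytes the inhibitors were the most abundant transcripts of the set. Fbxo5 was at 201.7 ± 29.7 FPKM and Fbxo43 at 68.9 ± 15.9 FPKM (SD, n = 3 each), and neither range met that of the next gene below. A middle group followed, with Cdc27 at 32.3 ± 3.07, Cdc26 at 28.5 ± 11.2, Cdc20 at 27.8 ± 4.66, Fzr1 at 26.5 ± 3.85 and Anapc11 at 20.2 ± 3.59 FPKM (SD, n = 3 each), where each gene overlapped its neighbour in the order. Cdc16 (5.89 ± 6.83 FPKM) and Anapc2 (2.55 ± 1.28 FPKM) were low (SD, n = 3 each) and also overlapped, and Cdc23 was listed at 0 in all 3 libraries. FPKM is a value per length, so levels of different genes can be set side by side, but the subunits of the complex form one particle at the protein level and their transcripts did not sit at one level. Among all tested genes of the same libraries, Fbxo5 stood at the 95.5 ± 0.2 percentile, Fbxo43 at the 88.3 ± 2.0 percentile and Anapc2 at the 29.8 ± 10.6 percentile (SD, n = 3 each).

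**Figure D1:**
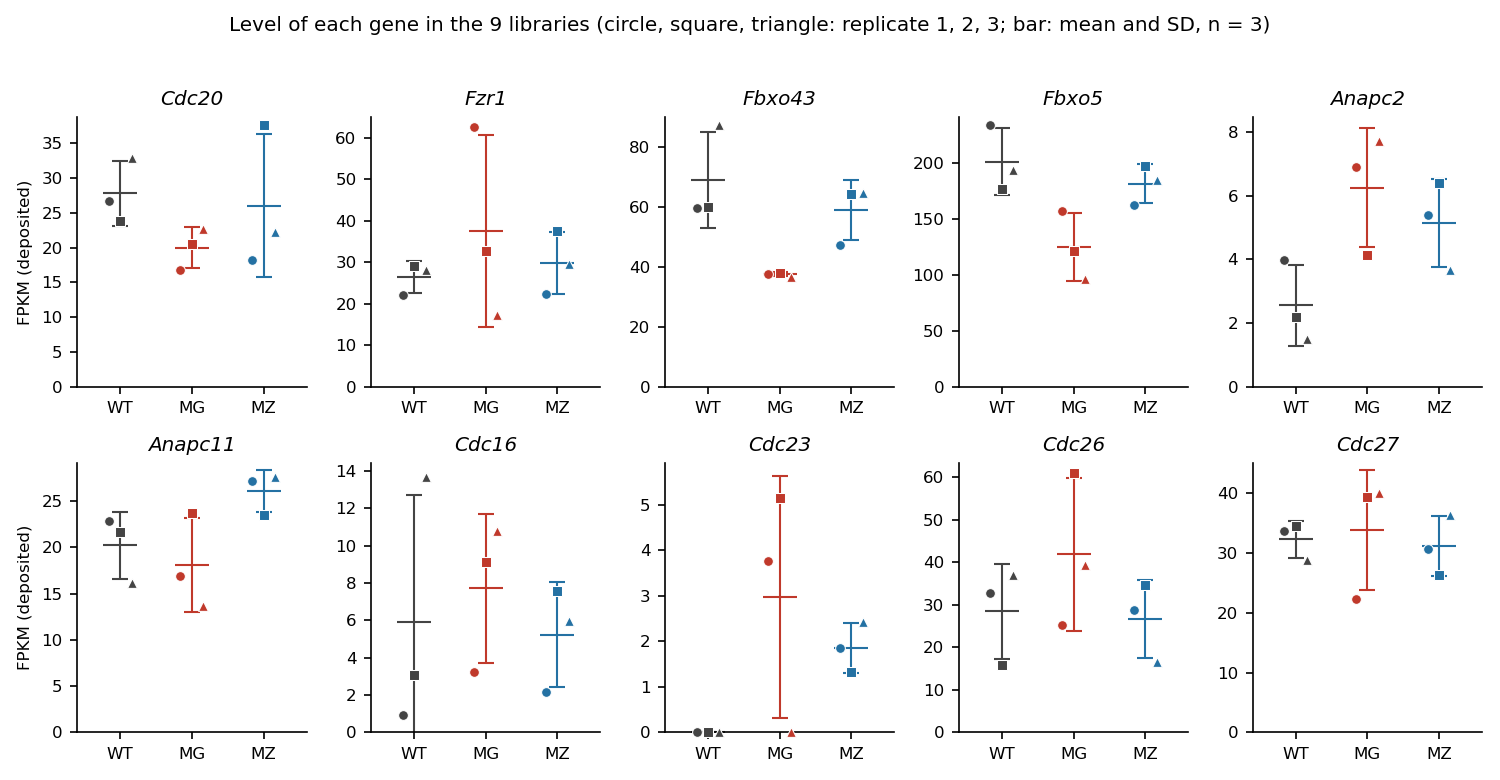
Deposited FPKM (vertical axes, each from 0) of the 10 genes in the WT, MG and MZ libraries; points are single libraries and bars the mean and SD (n = 3). The 3 MG values of Fbxo43 sit between 36.7 and 38.0 FPKM, below all WT values, while the MG values of Fzr1 run from 17.2 to 62.6 FPKM.

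MG was compared with WT to see how these transcripts differ when Mtor is targeted early in oocyte growth. Among the 10, the smallest p-values were those of the inhibitors, which were both lower in every MG library than in every WT library, without passing the test over all genes. Both activators and all 6 core subunits also stayed short of the threshold. Each gene was fitted with limma on log2(FPKM + 1) over all 9 libraries, with Benjamini-Hochberg adjustment over 10801 genes and a threshold of adjusted p under 0.05.

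Fbxo43 (chr15:36150060-36164884, minus strand, GRCm38, GENCODE M21) encodes Emi2, the inhibitor behind the metaphase arrest of the egg. It was at 59.5, 59.9 and 87.2 FPKM in WT libraries 1 to 3, at 37.4, 38.0 and 36.7 in MG libraries 1 to 3, and at 47.2, 64.3 and 64.6 in MZ libraries 1 to 3. The MG libraries were close together and below all the others, and the WT and MZ ranges overlapped. In bulk libraries such as these, fewer cells with a transcript and less of it per cell cannot be told apart. The MG mean was 54.2% of the WT mean. On the log2(FPKM + 1) scale the difference of MG from WT was -0.84 ± 0.22 (SE; 95% interval -1.32 to -0.37), with an unadjusted p of 0.0024 and a limma adjusted p of 0.107. Without MG 3 it was -0.83 (limma adjusted p = 0.188).

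Fbxo5 (chr10:5799160-5805600, minus strand) encodes Emi1, which blocks the Cdh1 form of the complex. Its values were 234.4, 176.7 and 193.9 FPKM in WT libraries 1 to 3, 157.6, 121.5 and 96.4 in MG libraries 1 to 3, and 163.0, 197.6 and 185.0 in MZ libraries 1 to 3. Every MG library was below every WT and every MZ library, and MG 3 was the lowest. The MG mean was 62.1% of the WT mean, with a log2 difference of -0.70 ± 0.21 (SE; 95% interval -1.16 to -0.24), an unadjusted p of 0.0062 and a limma adjusted p of 0.135. Without MG 3 it was -0.53 (limma adjusted p = 0.266). About 66.8 to 158.3 fragments lay behind each WT and MG value of Fbxo43, and about 124.4 to 212.1 behind each one of Fbxo5, counted on the longest annotated transcript.

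The authors' deposited table gives a log2 change of -0.89 with q = 0.00995 for Fbxo43 and -0.70 with q = 0.0366 for Fbxo5 from WT to MG. These were 2 of the 7 genes of the set with a deposited p under 1, and of such genes in the authors' deposited table, 12.7% had q under 0.05 for this pair of groups (9.35% lower and 3.33% higher in MG). The authors' tool and limma use different models of the spread.

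The lower FPKM sum of MG touches these values. Divided by the FPKM sum of its library and given per 1000000, Fbxo5 was at 326.2, 302.3 and 296.2 in WT libraries 1 to 3 and at 284.3, 236.3 and 225.2 in MG libraries 1 to 3, still without overlap. Fbxo43 was at 82.7, 102.6 and 133.3 in WT libraries 1 to 3 and at 67.5, 73.9 and 85.6 in MG libraries 1 to 3, so that MG 3 lay above WT 1 on this scale. With libraries scaled to the same sum the log2 differences were -0.46 for Fbxo43 (unadjusted p = 0.0749 and adjusted p = 0.275 by limma) and -0.31 for Fbxo5 (unadjusted p = 0.0853 and adjusted p = 0.290 by limma), while the median of all tested genes moved from 0.04 to 0.36. Relative to that median they were -0.82 and -0.67, against -0.89 and -0.75 without the scaling. This closeness was nearly fixed in advance, since the scaling moves all genes of a library together, and is no check of the differences.

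The rank of a gene within its own library does not depend on the scaling. Fbxo43 stood at the 86.6, 87.8 and 90.5 percentiles of tested genes in WT libraries 1 to 3, at the 82.5, 83.1 and 82.6 percentiles in MG libraries 1 to 3, and at the 85.0, 87.9 and 88.4 percentiles in MZ libraries 1 to 3. All MG ranks were below all others. Fbxo5 stood between the 95.3 and 95.8 percentiles in WT, between the 92.9 and 95 percentiles in MG, and between the 94.5 and 95.3 percentiles in MZ, with MG below WT without overlap and MG 1 within the range of MZ.

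**Figure D2:**
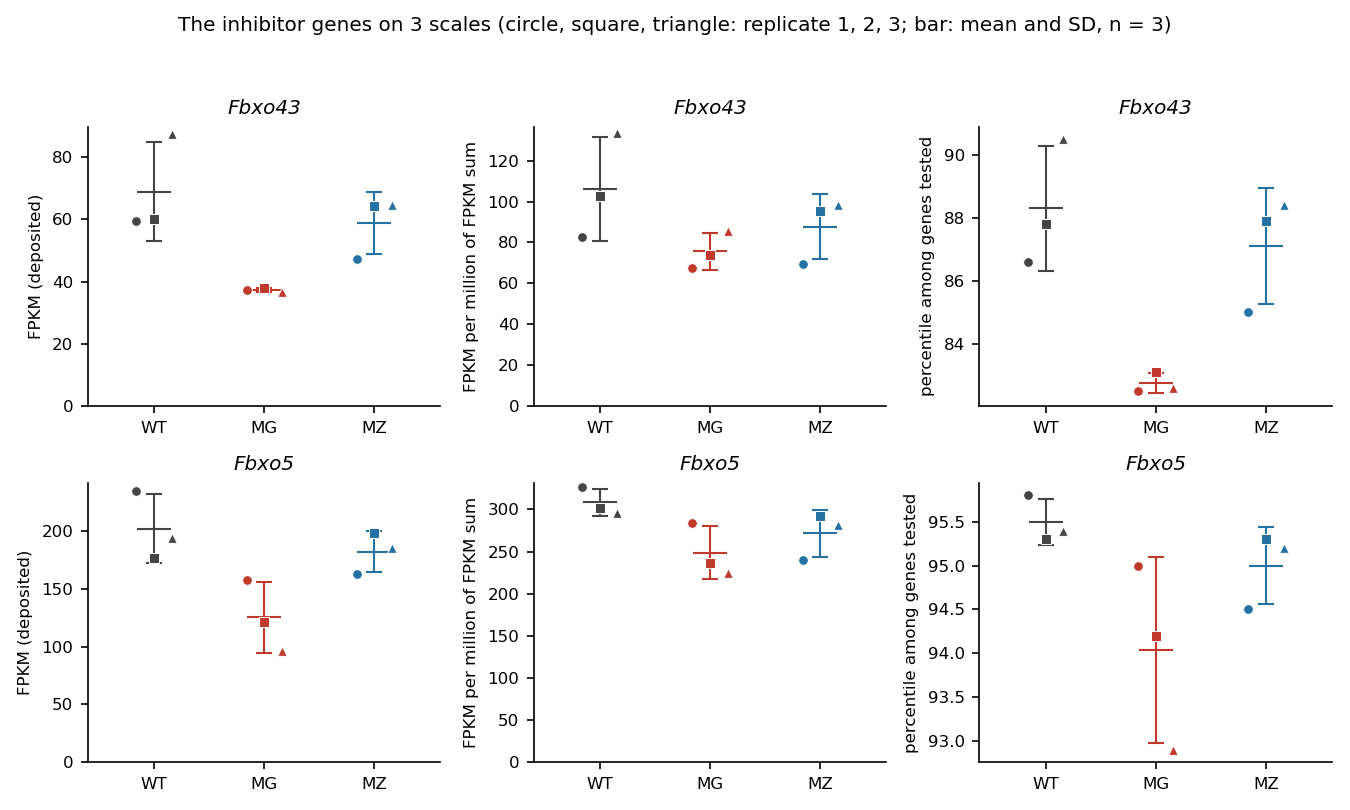
Fbxo43 (top) and Fbxo5 (bottom) in each library as deposited FPKM, per 1000000 of the FPKM sum of the library, and as the percentile among the 10801 genes tested (this axis does not start at 0); bars are the mean and SD (n = 3). MG lies below WT without overlap in each panel except the middle one of Fbxo43, where MG 3 (85.6) is above WT 1 (82.7).

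Cdc20, the activator that triggers anaphase, was at 26.6, 23.8 and 32.9 FPKM in WT libraries 1 to 3, at 16.8, 20.5 and 22.6 in MG libraries 1 to 3, and at 18.2, 37.7 and 22.3 in MZ libraries 1 to 3. All MG values were below all WT values, and MZ spanned both. The MG mean was 71.9% of the WT mean, the log2 difference was -0.46 ± 0.28 (SE; 95% interval -1.08 to 0.17) and the limma adjusted p was 0.435. With libraries scaled to the same FPKM sum this difference was -0.08, and per 1000000 of the FPKM sum MG (30.3 to 52.9) spanned WT (37.1 to 50.3). Relative to the median of all tested genes the difference was -0.44 with this scaling and -0.50 without it, a closeness nearly fixed in advance. The locus of Cdc20 in the table is shared with Elovl1, so reads of these neighbours may be split.

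Fzr1, the activator used during prophase arrest, was at 22.1, 29.2 and 28.1 FPKM in WT libraries 1 to 3, at 62.6, 32.8 and 17.2 in MG libraries 1 to 3, and at 22.3, 37.5 and 29.6 in MZ libraries 1 to 3. MG 1 was the highest of all 9 libraries and MG 3 the lowest, so the MG libraries differed among themselves more than the groups did. The SD was 23.1 FPKM in MG, 3.85 in WT and 7.58 in MZ (n = 3 each). The log2 difference of MG from WT was 0.32 ± 0.39 (SE; 95% interval -0.54 to 1.18; limma adjusted p = 0.717), and without MG 1 it was -0.14.

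Of the core subunits, all but Anapc11 had positive log2 differences of MG from WT. Whether the subunits differed from each other in this was not tested. The catalytic pair is formed by Anapc2, the cullin, and Anapc11, the RING protein that binds the ubiquitin-conjugating enzyme. Anapc2 was at 3.97, 2.18 and 1.5 FPKM in WT libraries 1 to 3, at 6.88, 4.14 and 7.72 in MG libraries 1 to 3, and at 5.38, 6.39 and 3.66 in MZ libraries 1 to 3. All MG values were above all WT values, and MZ overlapped both. The MG mean was 2.45 times the WT mean, with a log2 difference of 1.05 ± 0.39 (SE; 95% interval 0.20 to 1.91), an unadjusted p of 0.0204 and a limma adjusted p of 0.200. These values rest on about 11 fragments over the 3 WT libraries and 34 over the 3 MG libraries.

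Anapc11 was at 22.8, 21.6 and 16.1 FPKM in WT libraries 1 to 3, at 16.9, 23.7 and 13.7 in MG libraries 1 to 3, and at 27.2, 23.5 and 27.5 in MZ libraries 1 to 3. MG overlapped WT, and MZ lay above WT without overlap. The log2 difference of MG from WT was -0.17 ± 0.26 (SE; limma adjusted p = 0.774), and it became 0.20 with libraries scaled to the same FPKM sum. Relative to the median of all tested genes the difference was -0.16 with this scaling and -0.21 without it, again nearly fixed in advance.

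Cdc27, Cdc16 and Cdc23 encode subunits built of tetratricopeptide repeats, the arm of the complex that receives the activators. Cdc27 was the most even of the set in WT, at 33.7, 34.4 and 28.8 FPKM in WT libraries 1 to 3, and it was at 22.3, 39.4 and 40.0 in MG libraries 1 to 3 and at 30.7, 26.3 and 36.3 in MZ libraries 1 to 3. The groups overlapped, and the log2 difference of MG from WT was 0.03 ± 0.26 (SE; 95% interval -0.54 to 0.59; limma adjusted p = 0.974). That interval runs from 0.688-fold to 1.51-fold on the scale of FPKM + 1. Cdc16 was at 0.93, 3.05 and 13.7 FPKM in WT libraries 1 to 3, about 1, 3.1 and 13.4 fragments, at 3.22, 9.10 and 10.8 FPKM in MG libraries 1 to 3, and at 2.15, 7.57 and 5.98 FPKM in MZ libraries 1 to 3. With a log2 difference of 0.71 ± 0.70 (SE; limma adjusted p = 0.643) no change was detectable at this depth.

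Cdc23 was listed at 0 in all 3 WT libraries and in MG 3, at 3.77 and 5.14 FPKM in MG 1 and MG 2, and at 1.84, 1.32 and 2.42 in MZ libraries 1 to 3. It passed the filter on low values only through MG and MZ libraries, so it had to differ from WT to be tested at all. Over all libraries of a group it rests on about 19 fragments in MG and 13 in MZ. The limma adjusted p was 0.208 for MG against WT and 0.744 for MZ against WT, and no fold is given against a value listed at 0. Its locus in the table is shared with Brd8 and Kif20a, so reads may be split.

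Cdc26, the small subunit that stabilises Cdc16, was at 32.7, 15.7 and 36.9 FPKM in WT libraries 1 to 3, at 25.3, 61.0 and 39.3 in MG libraries 1 to 3, and at 28.8, 34.6 and 16.7 in MZ libraries 1 to 3. All 3 groups overlapped. The log2 difference of MG from WT was 0.54 ± 0.40 (SE; limma adjusted p = 0.524).

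For MG against WT 0 of the 10 genes passed the limma threshold, which 0.343% of all genes did (0.185% higher and 0.157% lower). An unadjusted limma p under 0.05 was found for 4 of the 10 (Fbxo43 and Fbxo5 lower, Anapc2 and Cdc23 higher) and for 17.7% of all genes (9.31% lower and 8.43% higher). Without Cdc23, which had to differ from WT to be tested, it was 3 of 9. No overlap between the libraries of the groups was found for 4 of the 10 (Fbxo43, Fbxo5 and Cdc20 lower, Anapc2 higher) and for 21.5% of all genes (9.89% lower and 11.6% higher). The log2 differences were negative for 4 and positive for 6 genes, and negative for 47% of all genes, with a median of 0.17, or 0.03 without Cdc23, beside 0.04 for all tested genes. In simulated libraries of these depths the same test recovered 7 of 100 genes with a 2-fold change and 78 of 100 with a 4-fold change for this comparison. The spread among simulated libraries was assumed. Changed genes were drawn from those above a mean level that Anapc2, Cdc16 and Cdc23 did not reach. The rates therefore do not hold for each of the 10 genes, and a miss does not show that a gene was unchanged.

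**Figure D3:**
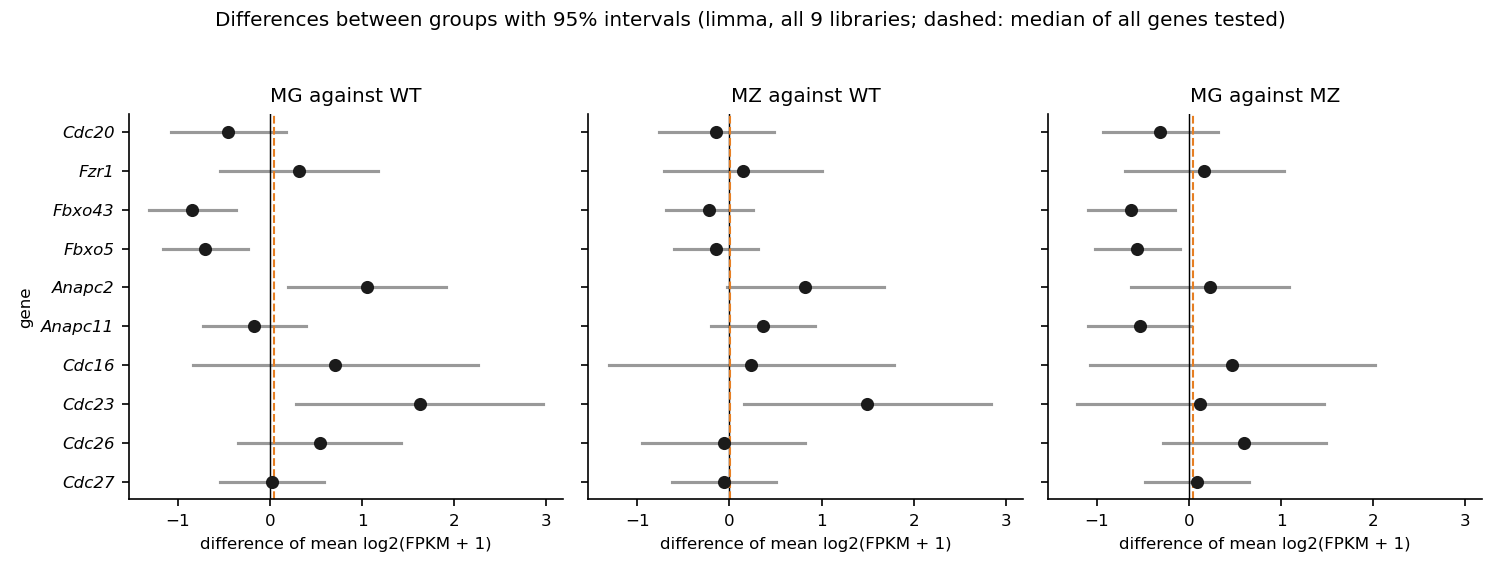
Difference of mean log2(FPKM + 1) between groups for each of the 10 genes (points) with 95% intervals from limma (bars); the dashed line is the median of all 10801 genes tested. For MG against WT the intervals of Fbxo43 (-1.32 to -0.37) and Fbxo5 (-1.16 to -0.24) lie below 0 and that of Anapc2 (0.20 to 1.91) above it, and none of the adjusted p-values passed.

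MZ was compared with WT for the later-acting Zp3-Cre. Both inhibitors overlapped WT, and no gene of the set passed. Fbxo43 had a log2 difference of -0.22 ± 0.22 (SE; 95% interval -0.69 to 0.25; limma adjusted p = 0.895) and Fbxo5 of -0.14 ± 0.21 (SE; 95% interval -0.60 to 0.32; limma adjusted p = 0.920). The lower ends of these intervals are 0.619-fold and 0.659-fold of WT, so a drop of that size is not outside them. Cdc20 (-0.14 ± 0.28) and Fzr1 (0.15 ± 0.39, both SE) overlapped WT.

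Among the core subunits in MZ, Anapc2 had a mean 2.02 times that of WT with overlap (log2 difference 0.82 ± 0.39, SE; limma adjusted p = 0.785). Anapc11 had 1.29 times the WT mean without overlap (0.36 ± 0.26, SE; limma adjusted p = 0.854). Cdc16, Cdc26 and Cdc27 had log2 differences of 0.24, -0.06 and -0.06 and overlapped WT. By limma 0 of the 10 genes passed, where 0.037% of all genes did (0.0278% higher and 0.00926% lower). An unadjusted p under 0.05 was found for 1 (Cdc23, higher) and for 6.3% of all genes (3.62% lower and 2.68% higher). No overlap was found for 2 (Anapc11 and Cdc23, both higher) and for 12.2% of all genes (6.52% lower and 5.67% higher). Without Cdc23 these counts were 0 of 9 and 1 of 9. The authors' deposited table lists 0 of the 7 genes with a deposited p under 1 at q under 0.05 for WT to MZ, and 2.55% of such genes (1.68% lower and 0.869% higher in MZ). The log2 differences were negative for 5 of the 10 and for 48.9% of all genes. The median over the 10 was 0.04, or -0.06 without Cdc23, beside 0.01 for all tested genes.

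No WT group belongs to either Cre line alone, so effects of the deletion and other differences between the lines cannot be told apart. The lines are compared directly by MG against MZ. This comparison uses the same MG libraries as MG against WT, so the results are set side by side and not counted as separate support. Fbxo43 was lower in MG than in MZ by a log2 difference of -0.62 ± 0.22 (SE; 95% interval -1.10 to -0.15), with an unadjusted p of 0.0144 and a limma adjusted p of 0.163. Fbxo5 was lower by -0.56 ± 0.21 (SE; 95% interval -1.02 to -0.10), with an unadjusted p of 0.0212 and a limma adjusted p of 0.188. Without MG 3 the differences were -0.61 for Fbxo43 and -0.39 for Fbxo5 (limma adjusted p = 0.302 and 0.424). In both genes the 3 MG values lay below the 3 MZ values. Neither passed the threshold, so a difference between the Cre lines was not shown by limma. With libraries scaled to the same FPKM sum the differences were -0.20 and -0.13, while the median of all genes moved from 0.04 to 0.39.

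In the authors' deposited table Fbxo43 has q = 0.00922 and Fbxo5 q = 0.0307 for MG to MZ, and these are 2 of 7 genes of the set with a deposited p under 1, where 26.5% of such genes in the authors' deposited table had q under 0.05 (18.2% lower and 8.3% higher in MG). Anapc11 had a log2 difference of -0.53 ± 0.26 (SE; limma adjusted p = 0.305) with MG 2 inside the MZ range. By limma 0 of the 10 genes passed, where 0.13% of all genes did (0.0741% higher and 0.0556% lower). An unadjusted p under 0.05 was found for 2 of the 10 (Fbxo43 and Fbxo5, lower) and for 17.6% of all genes (9.32% lower and 8.32% higher). No overlap was found for these 2 genes and for 25.2% of all genes (12.3% lower and 12.8% higher). The log2 differences were negative for 4 of the 10 and for 46.7% of all genes. The shares are near the background.

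Ratios within a library were used to compare partners without any scaling between libraries. The ratio of Cdc20 to Fzr1 shows which activator transcript prevails, and in FPKM it was 1.21, 0.817 and 1.17 in WT libraries 1 to 3, 0.268, 0.625 and 1.32 in MG libraries 1 to 3, and 0.813, 1.00 and 0.752 in MZ libraries 1 to 3. MG 1 and MG 2 were the lowest libraries and MG 3 the highest, so MG spanned the other groups. The mean log2 ratio of (FPKM + 1) differed by -0.77 between MG and WT (exact permutation test, two-sided, p = 0.4; adjusted over 6 ratio tests 0.8), by -0.29 between MZ and WT (exact p = 0.2; adjusted 0.8) and by -0.48 between MG and MZ (exact p = 0.7; adjusted 0.8). With 3 libraries against 3 the smallest possible exact p is 0.1.

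The ratio of Fbxo43 to Fbxo5 compares Emi2 and Emi1 transcripts. It was 0.254, 0.339 and 0.450 in WT libraries 1 to 3, 0.237, 0.313 and 0.380 in MG libraries 1 to 3, and 0.290, 0.325 and 0.349 in MZ libraries 1 to 3. The groups overlapped, with log2 differences of -0.14 for MG against WT (exact permutation p = 0.7), -0.08 for MZ against WT (exact p = 0.8) and -0.06 for MG against MZ (exact p = 0.8), all 0.8 after adjustment.

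A further pair of ratios, chosen after the values were seen and given with no test, sets each inhibitor against an activator. Fbxo5 to Fzr1 was 10.6, 6.05 and 6.89 in WT libraries 1 to 3, 2.52, 3.71 and 5.60 in MG libraries 1 to 3, and 7.30, 5.27 and 6.25 in MZ libraries 1 to 3. All MG ratios were below all WT ratios, and MG 3 lay within the MZ range. Fbxo43 to Cdc20 was 2.23, 2.51 and 2.65 in WT libraries 1 to 3, 2.23, 1.85 and 1.62 in MG libraries 1 to 3, and 2.6, 1.71 and 2.90 in MZ libraries 1 to 3. Here MG 1 and WT 1 were nearly equal, and MZ spanned most of the range.

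**Figure D4:**
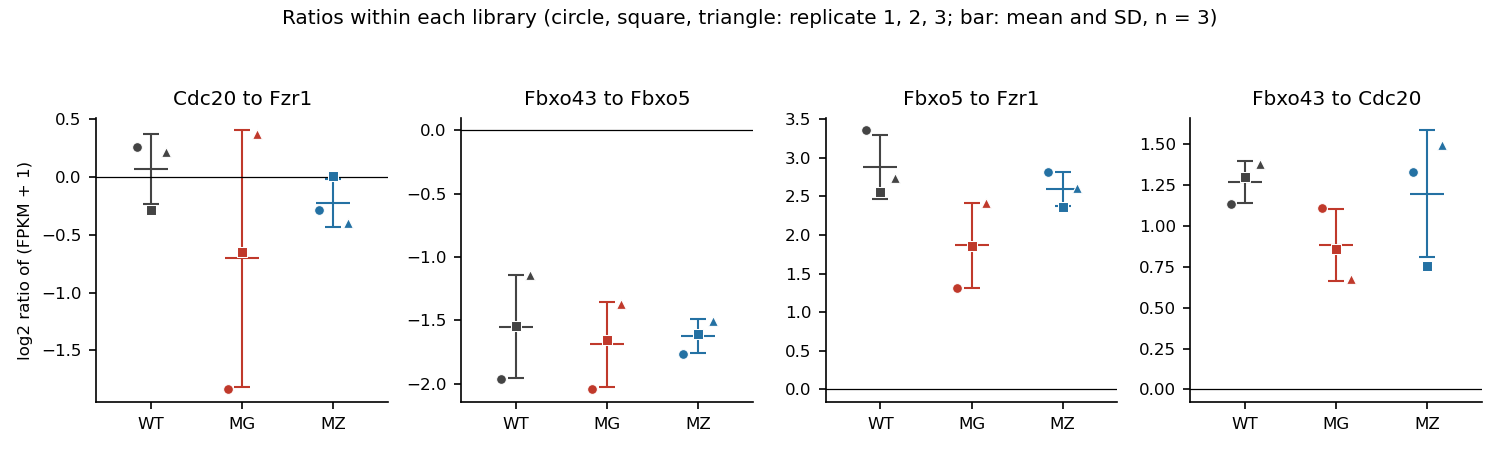
Log2 ratio of (FPKM + 1) within each library for 4 pairs of genes; points are libraries, bars the mean and SD (n = 3), and the vertical axes differ. The MG points of Fbxo5 to Fzr1, a ratio chosen after the values were seen, lie below all WT points. In the ratio of Fbxo43 to Fbxo5 the groups overlap.

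Genes around the 10 were described by list. Of all tested genes, 0.343% passed for MG against WT and 17.7% had an unadjusted p under 0.05 (9.31% lower and 8.43% higher). In the same comparison 21.5% did not overlap (9.89% lower and 11.6% higher) and 47% had negative log2 differences. The counts of each list stand beside these shares. They use FPKM as deposited and were not repeated with libraries scaled to the same FPKM sum. Of the 8 other subunits of the complex 0 passed for MG against WT by limma, 1 had an unadjusted p under 0.05, and 3 had positive and 5 negative log2 differences (median -0.11, beside 0.04 for all tested genes). No overlap was found for 3 of these 8 subunits (2 lower and 1 higher). Anapc16, a small accessory subunit and the most abundant of them, was at 241.6, 237.0 and 212.1 FPKM in WT libraries 1 to 3, at 137.7, 155.8 and 172.2 in MG libraries 1 to 3, and at 211.3, 227.8 and 236.7 in MZ libraries 1 to 3. Every MG value was below every WT and every MZ value, with a log2 difference from WT of -0.57 ± 0.16 (SE), an unadjusted p of 0.00446 and a limma adjusted p of 0.127. Its locus is shared with another row of the table. Anapc15, which helps the complex escape the checkpoint, was at 109.0 ± 35.9 FPKM in WT, 84.0 ± 19.5 in MG and 105.9 ± 3.90 in MZ (SD, n = 3 each) and overlapped between MG and WT.

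The ubiquitin-conjugating enzymes of the complex, Ube2c, which starts chains, and Ube2s, which extends them, had 0 of 2 passing and a median of -0.05 for MG against WT. Both log2 differences were negative, and both genes overlapped between MG and WT. Ube2c was at 163.3 ± 65.3 FPKM in WT and 158.3 ± 77.8 in MG, and Ube2s at 92.0 ± 24.3 in WT and 89.9 ± 16.1 in MG (SD, n = 3 each). Neither had an unadjusted p under 0.05 in any of the 3 comparisons.

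Of the 8 genes of the spindle assembly checkpoint, which withholds Cdc20 until chromosomes are attached, 0 passed for MG against WT by limma, 2 had an unadjusted p under 0.05 (1 lower and 1 higher, beside 17.7% of all genes), and the median was -0.25, beside 0.04 for all tested genes. Negative log2 differences were found for 5 of the 8, and no overlap for 1 (higher). Mad2l1, which binds Cdc20 directly, was at 260.8 ± 22.2 FPKM in WT and 221.2 ± 17.2 in MG, and Bub3 at 117.9 ± 36.1 and 86.7 ± 21.1 (SD, n = 3 each). Both overlapped between these groups.

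Of 10 substrates of the complex 0 passed for MG against WT by limma, 3 had an unadjusted p under 0.05 (all 3 lower, beside 9.31% of all genes), and 9 had negative log2 differences (47% of all genes), with a median of -0.38 beside 0.04 for all tested genes. No overlap was found for 4, all lower, beside 9.89% of all genes. The lower FPKM sum of MG touches these counts. With libraries scaled to the same FPKM sum the median of all tested genes was 0.36, so the number of negative differences may depend on the scaling. Ccnb1, cyclin B1, was at 885.8, 805.1 and 974.3 FPKM in WT libraries 1 to 3 and at 610.7, 623.0 and 420.2 in MG libraries 1 to 3, all MG values below all WT values (log2 difference -0.71 ± 0.19, SE; unadjusted p = 0.00309; limma adjusted p = 0.114). Pttg1, securin, was at 436.4 ± 96.4 FPKM in WT and 328.3 ± 41.7 in MG (SD, n = 3 each; limma adjusted p = 0.307), also without overlap. For MZ against WT the substrates had a median of -0.14, with 0 passing and 0 at an unadjusted p under 0.05.

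Of 6 genes that control the inhibitors and activators 0 passed for MG against WT by limma and 0 had an unadjusted p under 0.05, with a median of 0.05. Negative log2 differences were found for 3 of the 6, and no overlap for 1 (higher). Mos, the kinase at the head of the MAPK arm of the metaphase arrest, was at 1608 ± 572 FPKM in WT, 1042 ± 361 in MG and 2167 ± 87.5 in MZ, and Camk2g, the kinase that marks Emi2 for destruction at fertilization, at 47.8 ± 14.5, 58.4 ± 3.91 and 53.4 ± 4.81 in the same order (SD, n = 3 each). Both overlapped between MG and WT. Mos was lower in every MG than in every MZ library (log2 difference -1.12 ± 0.29, SE; unadjusted p = 0.00257; limma adjusted p = 0.0877) and did not pass. For MZ against WT, 1 of the 34 genes of these lists had an unadjusted p under 0.05 and 0 passed, beside 6.3% and 0.037% of all genes.

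**Figure D5:**
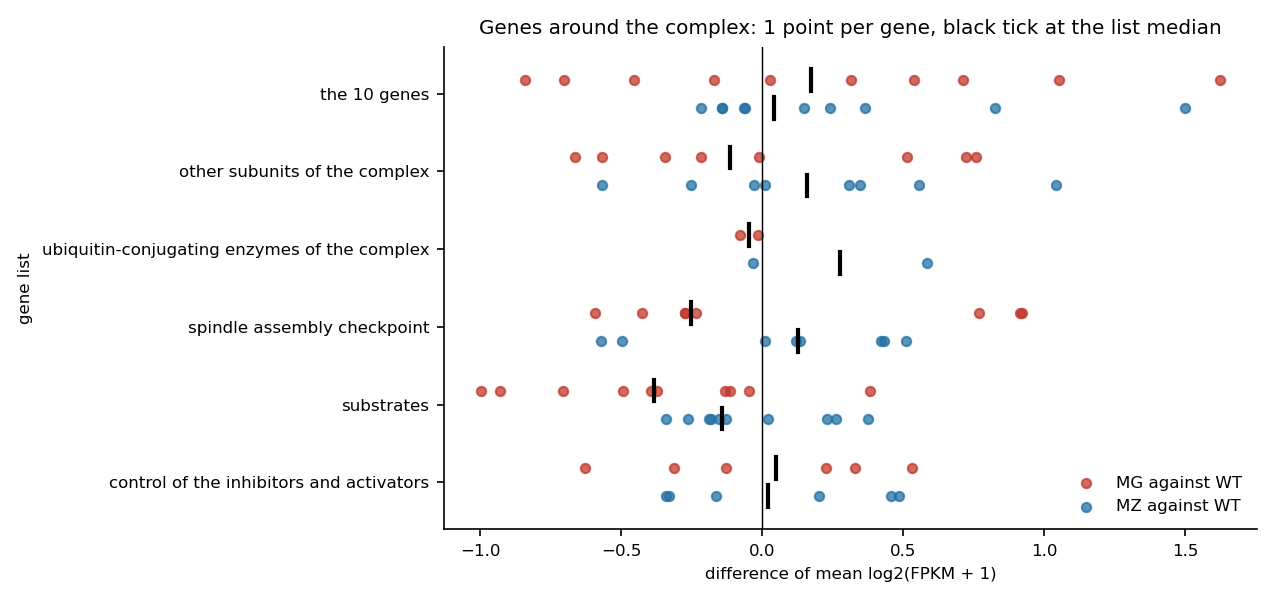
Difference of mean log2(FPKM + 1) from WT (horizontal axis) for the 10 genes and for 5 lists of genes around the complex, in MG (red) and MZ (blue); each point is 1 gene and the black tick the list median. Of the 10 substrates, 9 MG points lie below 0, beside 47% of all genes tested, on FPKM as deposited.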

How the data were processed

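RNA of 9 libraries of fully grown oocytes was amplified by Smart-seq2 and libraries were prepared with NEBNext Ultra reagents, per the labels' protocols. The authors deposited FPKM, computed with Cufflinks 2.2.1 after alignment to mm10 with TopHat2 2.0.13, per the submitters' processing notes, and the deposited table also holds the authors' Cuffdiff log2 fold changes, p-values and q-values. The sources used here do not give the strand setting. Of 24255 rows, 27 whose symbol had become a date were left out. Symbols were matched to GENCODE M21 (95.2%), which gave transcript lengths.

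The number of fragments behind a value was estimated from the lowest step of FPKM times effective length over 2220 genes with 1 transcript of at least 1500 bp. Of the lowest values, 67.7% to 77.0% per library lay within 5% of that step. Higher multiples of the step were not checked. The estimate uses the longest transcript, so it is too high for genes that use a shorter one, and covers counting error only, since reads carried no molecular identifiers.

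Genes reaching 1 FPKM in 3 or more libraries (10801, all 10 of the set among them) were fitted as log2(FPKM + 1) with limma 3.58.1 in R 4.3.3, with a variance trend, all 9 libraries and 6 residual degrees of freedom. This scale understates changes of low genes. Tests were two-sided. Ratios were tested by exact permutation. In simulated data with the same assumed spread for every gene, 13 of 10312 unchanged genes were called for MG against WT and 0 of 10512 for MZ against WT. The 13 false calls stand beside the 7 and 78 changed genes recovered for MG against WT.

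The genes, the lists around them and the tests were chosen with earlier results of these data known. Named from each list are genes that passed or, failing these, the 2 most abundant. Other pseudocounts, filters, scalings, variance models, a replicate block and leaving out each library were tried.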

Additional observations from a re-analysis of the deposited data

How the results depend on the processing

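In all 16 alternative settings and 3 comparisons 0 of the 10 genes passed the threshold by limma. Of 480 values of the 10 genes, 456 kept their direction. Part of this count was fixed in advance. No filter, no variance trend, only the 2 groups compared and the replicate block leave a difference unchanged. So does leaving out a library of the group not compared. Fbxo43 and Fbxo5 were lower in MG than in WT in every setting (-0.94 to -0.46 and -0.88 to -0.31; adjusted p 0.112 to 0.275 and 0.0782 to 0.302), and the unadjusted p was under 0.05 in 15 of 16 for each, the exception being the same FPKM sum. With libraries scaled to the same FPKM sum Anapc11 reversed to 0.20 for MG against WT and Cdc20 to 0.11 for MG against MZ. Relative to the median of all tested genes, these were -0.16 and -0.29 with that scaling, which can hardly change a value relative to the median. With a pseudocount of 0.1 Cdc23 reversed to -0.59 for MG against MZ.

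Leaving out 1 library at a time also reversed values that were not past the threshold. For MG against WT the ranges were -0.14 (without MG 1) to 0.77 for Fzr1, -0.37 to 0.0033 (without MG 3) for Anapc11, -0.11 to 0.29 for Cdc27, and -0.35 to 0.063 for the log2 ratio of Fbxo43 to Fbxo5. For MZ against WT they were -0.43 to 0.072 for Cdc20, -0.029 to 0.33 for Fzr1, -0.43 to 1.04 for Cdc16, -0.43 to 0.23 for Cdc26, -0.18 to 0.049 for Cdc27 and -0.28 to 0.13 for Fbxo43 to Fbxo5. For MG against MZ they were -0.28 to 0.62 for Fzr1, -0.37 to 0.94 for Cdc23, -0.052 to 0.35 for Cdc27, -1.02 to 0.086 for Cdc20 to Fzr1 and -0.22 to 0.11 for Fbxo43 to Fbxo5. The cause was not tested.

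The background counts of genes past the threshold moved more. For MG against WT the count was 37 (20 higher, 17 lower), and it was 17 with no filter, 66 (61 higher, 5 lower) with the same FPKM sum, 30 (20 higher, 10 lower) with upper quartile scaling, 32 (27 higher, 5 lower) without the variance trend, 5 with only the 2 groups compared, and 3 (without WT 3) to 24 (without MG 3) with 1 library left out. For MZ against WT it was 4, and 2 with a pseudocount of 0.1, 2 with no filter, 1 with the same sum, 7 without the trend and 0 to 6 with 1 library left out. For MG against MZ it was 14 (8 higher, 6 lower), and 6 with a pseudocount of 0.1, 9 with no filter, 31 (25 higher, 6 lower) with the same sum, 9 without the trend, 73 (19 higher, 54 lower) with only the 2 groups compared, and 214 (55 higher, 159 lower) without WT 1, 210 (39 higher, 171 lower) without MG 1, 9 without WT 2 and 0 to 3 without any 1 of the other libraries. The cause was not tested.

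With the replicate number as a replicate block the count was 13 for MG against WT, 0 for MZ against WT and 159 (33 higher, 126 lower) for MG against MZ, and 0 of the 10 genes passed. Deviations of libraries of the same number correlated between -0.0702 and 0.0731 over all tested genes. Of 9 libraries, 2 correlated best with their own number. Such correlations do not show whether libraries of the same number share a batch, which was not tested further.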

Other observations

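Genes of the surrounding lists that fall outside the naming rule were picked after their values were seen and are given as values. Aurka, the Aurora A kinase of the spindle poles and a substrate of the Cdh1 form of the complex, was at 284.9, 215.7 and 245.1 FPKM in WT libraries 1 to 3, at 132.7, 144.5 and 97.4 in MG libraries 1 to 3, and at 265.4, 238.7 and 247.8 in MZ libraries 1 to 3. All MG values were below all others. The log2 difference was -1.0 ± 0.19 for MG against WT (SE; limma adjusted p = 0.0597) and -1.02 ± 0.19 for MG against MZ (SE; limma adjusted p = 0.0681), so neither passed. Among the checkpoint genes Bub1, a kinase of the kinetochore, was at 4.01 ± 0.50 FPKM in WT and 8.49 ± 1.57 in MG, and its partner Bub1b at 102.5 ± 25.5 and 67.6 ± 16 (SD, n = 3 each). Their limma adjusted p-values were 0.171 and 0.222. Anapc7, a subunit with tetratricopeptide repeats, was at 2.55 ± 1.79 FPKM in WT and 5.69 ± 0.76 in MZ (SD, n = 3 each; limma adjusted p = 0.744), without overlap.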
